A study of Mus musculus with 22 samples.

Results

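Transcripts of 9 genes of the fibroblast growth factor (FGF), epidermal growth factor (EGF) and hepatocyte growth factor (HGF) pathways were followed in the ischemic calf muscle of 22 mice. The genes were the ligands Fgf1, Fgf2, Fgf6, Egf and Hgf and the receptors Fgfr1, Fgfr4, Egfr and Met. Every array probe that the platform annotation assigns to 1 of these symbols and to no other gene was used, which gave 19 of 38563 probes, for 9 of the 18524 genes with a symbol. An additional probe, shared between Fgfr1 and Flg, was left out. The mice were C57BL/6N males of 8 to 12 weeks, described as non-diabetic in the sample titles. All 22 had the femoral artery of 1 leg removed, and on day 5 of ischemia each received 12 mg/kg of a locked nucleic acid (LNA) oligonucleotide by intraperitoneal injection. In the 11 ANTI-210 mice the oligonucleotide was directed against the microRNA miR-210, and in the 11 SCR mice it was a scrambled control sequence. The gastrocnemius was taken on day 7, and 200 ng of RNA per muscle was read on an Illumina MouseWG-6 v2 BeadChip, an array whose probes sit on beads. Each mouse is 1 replicate, and muscles without ischemia were not analysed here.

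FGF, EGF and HGF are secreted proteins that bind receptor tyrosine kinases on the cell surface and switch on the RAS and ERK kinase relay. FGF1 and FGF2 act on many cell types, among them endothelial cells and myoblasts, and FGF6 is made mostly by skeletal muscle. EGF is cut from a membrane-bound precursor and activates the EGF receptor, a member of the ERBB family. HGF is stored in the matrix of muscle in an inactive form and, once cleaved, activates its receptor MET on satellite cells, the stem cells from which injured fibres are rebuilt. FGFR1 and FGFR4 are the FGF receptors best known from myogenic cells. miR-210 is a microRNA induced by hypoxia.

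ANTI-210 is directed against a single mature microRNA, whose sequence is given here with the seed, bases 2 to 8 from the 5′ end, in capitals. In RefSeq the mouse sequence lies on the minus strand at chr7:141221407-141221428 (GRCm38.p6).
miR-210-3p: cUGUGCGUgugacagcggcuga

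Promoter windows of 250 bases that end 1 base before an annotated transcription start were read for 7 of the 9 genes, 9 windows in all. Those of Egf, Fgf6, Egfr and Hgf are shown because, among the 7 genes read, these 4 had the largest slopes on fibre loss in the results that follow. The first pair went one way and the second pair the other. No window of Fgf1 or Fgfr1 was read, and the slope of Fgf1 was larger still. The windows come from RefSeq (GRCm38.p6): Egf at chr3:129755323-129755572 on the minus strand, Fgf6 at chr6:127015292-127015541, Egfr at chr11:16751953-16752202 and Hgf at chr5:16553245-16553494 on the plus strand. Capitals mark E-boxes, the letters CANNTG that myogenic basic helix-loop-helix factors can bind, which read the same on both strands.
Egf: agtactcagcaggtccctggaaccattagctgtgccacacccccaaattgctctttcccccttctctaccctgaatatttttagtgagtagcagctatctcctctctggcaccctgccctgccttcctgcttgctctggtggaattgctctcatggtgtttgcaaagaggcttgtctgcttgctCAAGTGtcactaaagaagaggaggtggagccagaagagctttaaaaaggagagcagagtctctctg
Fgf6: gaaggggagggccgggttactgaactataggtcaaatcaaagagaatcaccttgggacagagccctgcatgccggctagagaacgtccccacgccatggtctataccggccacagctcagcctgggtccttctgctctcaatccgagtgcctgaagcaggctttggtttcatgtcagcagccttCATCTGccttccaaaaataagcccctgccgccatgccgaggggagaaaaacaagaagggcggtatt
Egfr: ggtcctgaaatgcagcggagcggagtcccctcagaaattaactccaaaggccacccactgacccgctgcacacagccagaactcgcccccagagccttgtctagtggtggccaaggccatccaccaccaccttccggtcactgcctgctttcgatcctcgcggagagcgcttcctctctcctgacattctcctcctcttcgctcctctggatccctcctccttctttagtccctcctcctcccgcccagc
Hgf: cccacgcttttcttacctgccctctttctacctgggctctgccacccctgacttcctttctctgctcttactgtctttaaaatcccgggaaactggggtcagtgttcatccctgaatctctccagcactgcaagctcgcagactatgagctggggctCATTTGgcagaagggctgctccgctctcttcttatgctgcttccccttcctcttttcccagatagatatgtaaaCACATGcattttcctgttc

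The Egf and Fgf6 windows each held 1 E-box, both 66 bases before the start, the Hgf window held 2 and the Egfr window none. E-boxes are common, since 66.2% of 32851 RefSeq promoter windows of this length held at least 1. The E-box form CAGCTG, present in 13.0% of all windows, and the binding motif of MEF2, present in 2.92% and searched on both strands, were in none of the 4 windows shown. The letters ACGTG, the core of the hypoxia response element, searched on both strands and present in 16.6% of all windows, were also in none of these 4. Egf and Hgf have 2 windows each, of which the one farther upstream is shown. ACGTG was in the other Egf window, 60 bases before its start, and in the windows of Fgfr4 and Met. These matches describe letters in the windows and not sites in use.

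The deposited values run from 4.35 to 15.4 on the log2 scale and were quantile normalized by the authors. No 2 arrays were identical, and correlations between arrays ran from 0.947 to 0.997. Most markers of mature fibres were near the top of the scale, with Acta1, the actin of skeletal muscle, at a mean of 15.08. The labels give no score of damage. The loss of mature fibre transcripts was used as a measured stand-in, as a mature fibre index per mouse, in which each of 26 fibre genes was centred on its mean over the mice and the 26 log2 deviations were averaged. The index ran from -0.50 to 0.19 with an SD of 0.193, and it was lowest in SCR mouse 6 (-0.50), ANTI-210 mouse 11 (-0.44), SCR mouse 7 (-0.32) and ANTI-210 mouse 3 (-0.20). It averaged 0.0046 in SCR and -0.0046 in ANTI-210 muscles. Some fibre genes sat at the top of the scale with little room to vary, such as Myl1, a myosin light chain, which ran only from 15.30 to 15.40. Trdn, also among the 26 genes, was at the floor, from 4.42 to 4.67. None of the 9 genes described here is part of the index. In whole muscle, fewer fibres and less RNA per fibre cannot be told apart in such an index.

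Fgf1 was among the most variable transcripts of the whole array. Its brighter probe read a lowest log2 intensity of 6.33, a median of 9.31 and a highest of 9.64 in SCR muscles, and 6.40, 8.54 and 9.29 in ANTI-210 muscles. All 11 ANTI-210 values lay within the SCR range, while 6 of the 11 SCR values lay above every ANTI-210 value and 1 below. The 4 lowest values belonged to the 4 mice of lowest mature fibre index, 2 of each group. Its SD over the 22 mice was above that of 99.4% of all probes. The ANTI-210 mean was 8.40 ± 0.86 (SD, n = 11) against 8.65 ± 1.16 (SD, n = 11) in SCR, a log2 difference of -0.25 (95% interval -1.13 to 0.62, unadjusted p = 0.551 from limma). That difference depended on single mice, at -0.49 without SCR mouse 6 and -0.05 without ANTI-210 mouse 11, and array weights gave -0.58 (unadjusted p = 0.0877). With each SD of the mature fibre index Fgf1 had a slope of 0.95 (standard error 0.07, limma's adjusted p = 5.38e-10). Without the 4 mice of lowest index it was 0.46 (adjusted p = 0.00140). A slope in part of the mice is per SD of the index among those mice, so its size cannot be set against that in all mice. The index held 90.1% of the variance of Fgf1 among mice and the oligonucleotide group 1.68%. The dimmer Fgf1 probe, whose Pearson r with the brighter one was 0.97, had a slope of 0.72 and a difference of -0.29 (unadjusted p = 0.385).

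At an equal mature fibre index the difference of Fgf1 between the groups was -0.21 (95% interval -0.48 to 0.06, unadjusted p = 0.116 from limma). The dimmer probe was the only one of the 19 past the unadjusted threshold of 0.05 in this comparison, at -0.25 (p = 0.0358, adjusted p = 0.867), where 5.64% of all probes passed. Without SCR mouse 8 the brighter probe also passed, at -0.28 (unadjusted p = 0.0203). These values turn on how damage is expressed. With the first principal component of all probes in place of the index the difference of the brighter probe was -0.02, and with a macrophage index it was 0.09.

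Egf followed the same course. Its brighter probe had a lowest value of 6.80, a median of 9.35 and a highest of 9.57 in SCR muscles, and 6.89, 8.70 and 9.55 in ANTI-210 muscles. The same 4 mice were lowest, and all 11 ANTI-210 values lay within the SCR range. The means were 8.89 ± 1.03 (SD, n = 11) in SCR and 8.63 ± 0.80 (SD, n = 11) in ANTI-210, a difference of -0.25 (95% interval -1.04 to 0.53, unadjusted p = 0.509 from limma). Without SCR mouse 6 it was -0.46, without ANTI-210 mouse 11 it was -0.08, and with array weights -0.55 (unadjusted p = 0.0692). Per SD of the index Egf had a slope of 0.85 (standard error 0.06, adjusted p = 1.39e-09). Without the 4 mice of lowest index it was 0.27 per SD among the mice kept (adjusted p = 0.0230). The index held 88.4% of the variance of Egf against 2.06% for the group. At an equal index the difference was -0.21 (unadjusted p = 0.0990). It passed the unadjusted threshold without SCR mouse 1 (-0.26, p = 0.0496) or SCR mouse 7 (-0.26, p = 0.0440), and it became -0.05 with the first principal component and 0.07 with the macrophage index. Without the 4 mice of lowest index Egf was lower with ANTI-210 by an unadjusted test, at -0.39 (p = 0.0466, adjusted p = 0.890 from limma). The dimmer Egf probe, with a mean of 5.79 near the floor of the array, had a slope of 0.34 (adjusted p = 4.65e-04) and a difference of -0.13.

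**Figure D1:**
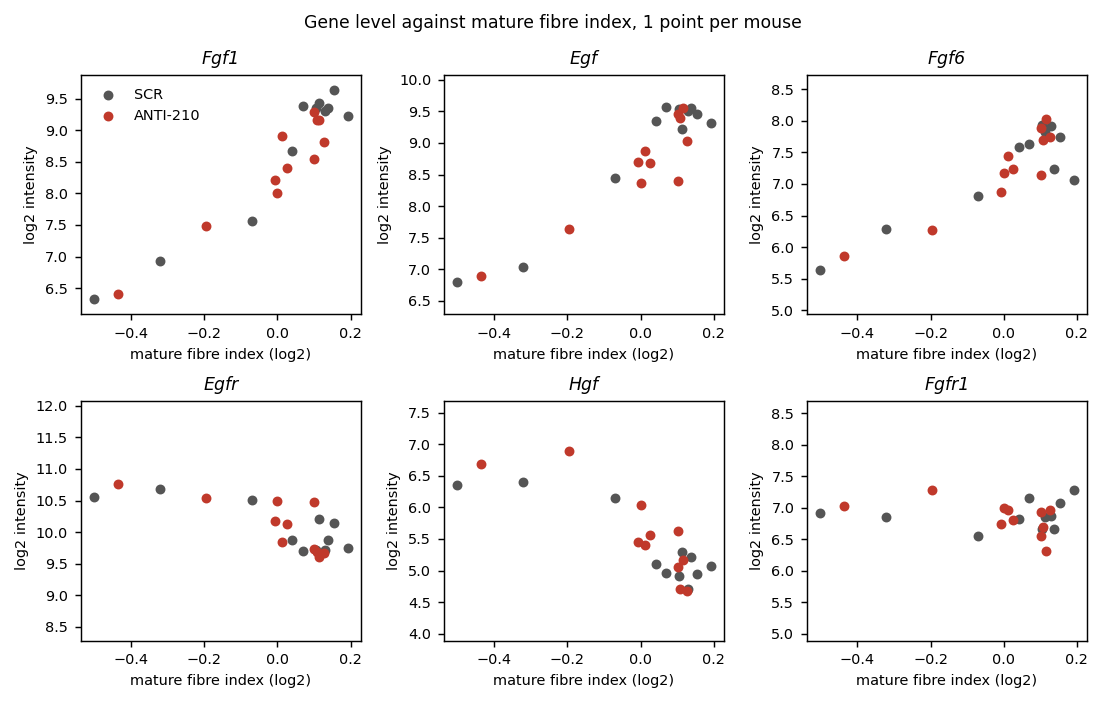
Log2 intensity of the brightest probe of 6 genes (vertical axes) against the mature fibre index in log2 units (horizontal axes), with 1 point per mouse, SCR in grey and ANTI-210 in red. Fgf1, Egf and Fgf6 climb with the index, Egfr and Hgf decline, and Fgfr1 shows no slope past the threshold.

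Fgf6, a ligand largely restricted to muscle, was the third gene that was higher where fibre transcripts were higher. In SCR muscles it ran from 5.64 through a median of 7.59 to 7.93, and in ANTI-210 muscles from 5.86 through 7.24 to 8.03. The group means were 7.24 ± 0.74 and 7.21 ± 0.67 (SD, n = 11 each), with a difference of -0.03 (unadjusted p = 0.916). The lowest 4 mice were again those of lowest index. Its slope was 0.62 per SD of the index (standard error 0.07, adjusted p = 1.62e-07), and the second Fgf6 probe gave 0.63 and a difference of -0.09. Without the 4 mice of lowest index the slope of Fgf6 was 0.21 per SD of the index among the mice kept (adjusted p = 0.107).

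Hgf varied the other way. Its brightest probe had a lowest value of 4.70, a median of 5.11 and a highest of 6.40 in SCR muscles, and 4.68, 5.46 and 6.90 in ANTI-210 muscles. The mean over all mice was 5.47, so that most muscles were near the floor, and the 4 mice of lowest index were the 4 highest. The difference between the groups was 0.20 (95% interval -0.38 to 0.77, unadjusted p = 0.489), and 0.06 without ANTI-210 mouse 3 or 0.30 without SCR mouse 7. Per SD of the index Hgf was lower, with a slope of -0.56 (standard error 0.08, adjusted p = 3.46e-06). Without the 4 mice of lowest index it was -0.31 per SD among the mice kept (adjusted p = 0.00804). A second probe had a slope of -0.24 (adjusted p = 2.75e-06). The third, at a mean of 4.64, had one of -0.01 (adjusted p = 0.708) and an r of -0.07 with the brightest, so the 3 Hgf probes do not all read the same course.

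Fgf2, a ligand with wide effects on vessels and myoblasts, was at the floor in all muscles, from 4.45 to 4.74. Its difference was 0.04 (unadjusted p = 0.341) and its slope 0.02 (adjusted p = 0.580). A value this close to the floor moves little with the amount of RNA, so these numbers carry little information on Fgf2.

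Among the receptors Egfr was the one with a slope on the index past the threshold. The brightest of its 5 probes had a lowest value of 9.70, a median of 9.88 and a highest of 10.68 in SCR muscles, and 9.60, 10.12 and 10.76 in ANTI-210 muscles. The 5 mice of lowest index were the 5 highest, and the group means of 10.07 ± 0.37 and 10.10 ± 0.42 (SD, n = 11 each) differed by 0.03 (95% interval -0.31 to 0.37, unadjusted p = 0.839). Its slope was -0.29 per SD of the index (standard error 0.06, adjusted p = 1.66e-04). All 5 probes had a negative slope past the threshold, from -0.30 to -0.15, and differences between the groups from -0.02 to 0.14. Without the 4 mice of lowest index the slope of the brightest probe was -0.18 per SD among the mice kept (adjusted p = 0.0802).

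The brighter Fgfr1 probe ran from 6.55 through a median of 6.86 to 7.28 in SCR muscles and from 6.31 through 6.93 to 7.28 in ANTI-210 muscles. Its difference was -0.04 (95% interval -0.24 to 0.17, unadjusted p = 0.720) and its slope -0.04 (adjusted p = 0.634). The dimmer probe, at a mean of 4.83, had a difference of 0.09 (unadjusted p = 0.190) and did not follow the brighter one (r = -0.04). Fgfr4, a receptor of myoblasts, lay between 4.56 and 5.02 and had a slope of -0.06 (adjusted p = 0.0683). Met, the HGF receptor, lay between 4.60 and 5.18 with a slope of 0.08 (adjusted p = 0.0950). Both were near the floor, with differences of -0.01 and -0.06 between the groups.

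**Figure D2:**
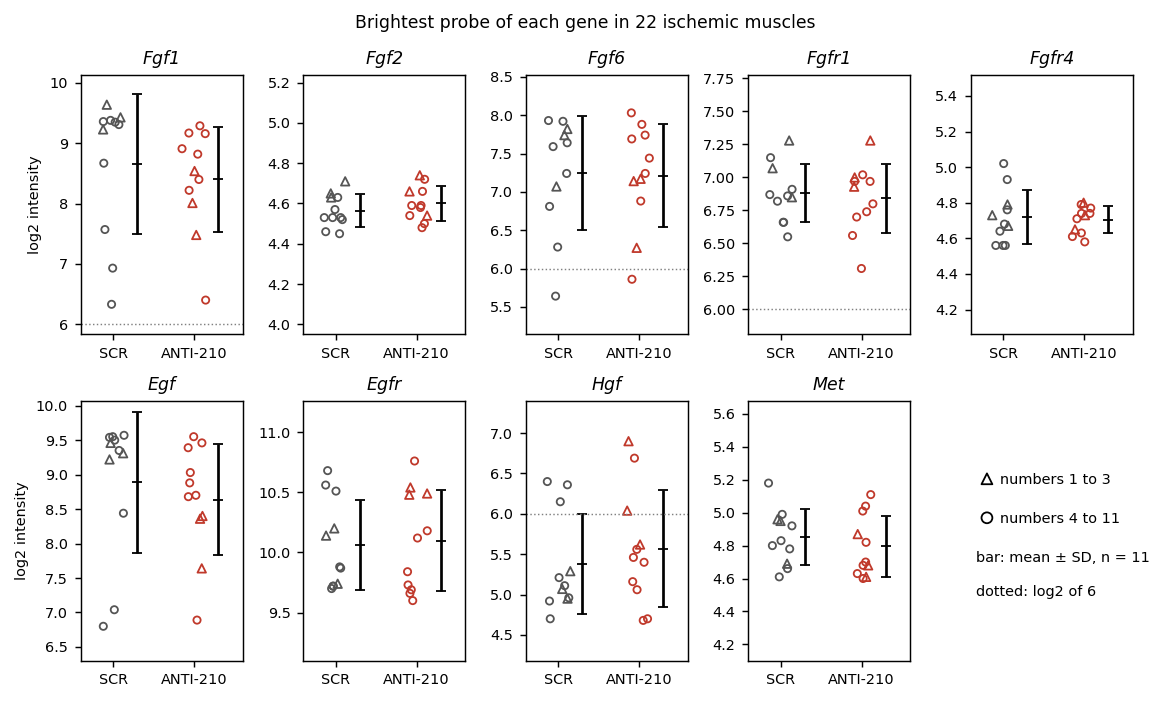
Log2 intensity of the brightest probe of each of the 9 genes (vertical axes) in SCR and ANTI-210 muscles, with 1 symbol per mouse, triangles for replicate numbers 1 to 3 and circles for 4 to 11. Black bars give mean ± SD (n = 11) and the dotted line marks a log2 value of 6, below which probes are near the floor. The groups overlap for every gene.

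Over the 19 probes, none differed between ANTI-210 and SCR at an unadjusted p under 0.05, the lowest p being 0.190 for the dimmer Fgfr1 probe, and none after adjustment. Of all 38563 probes 3.41% passed the unadjusted threshold. On the index, 6 probes had a positive slope with an adjusted p under 0.05, against 16.3% of all probes tested, and 7 had a negative one, against 18.9%. Either direction was found in 35.1% of all probes, and in 70.3% of the 14370 probes that were not near the floor, so a slope on the index was the usual course of a well measured transcript. The slopes of Fgf1 and Egf were 0.95 and 0.85, where the median size was 0.18 among probes not near the floor. No probe of the 19 had a slope that differed between the groups at an unadjusted p under 0.05, where 4.08% of all probes passed. The lowest p was 0.0685, for the brighter Fgfr1 probe, at -0.19 per SD.

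**Figure D3:**
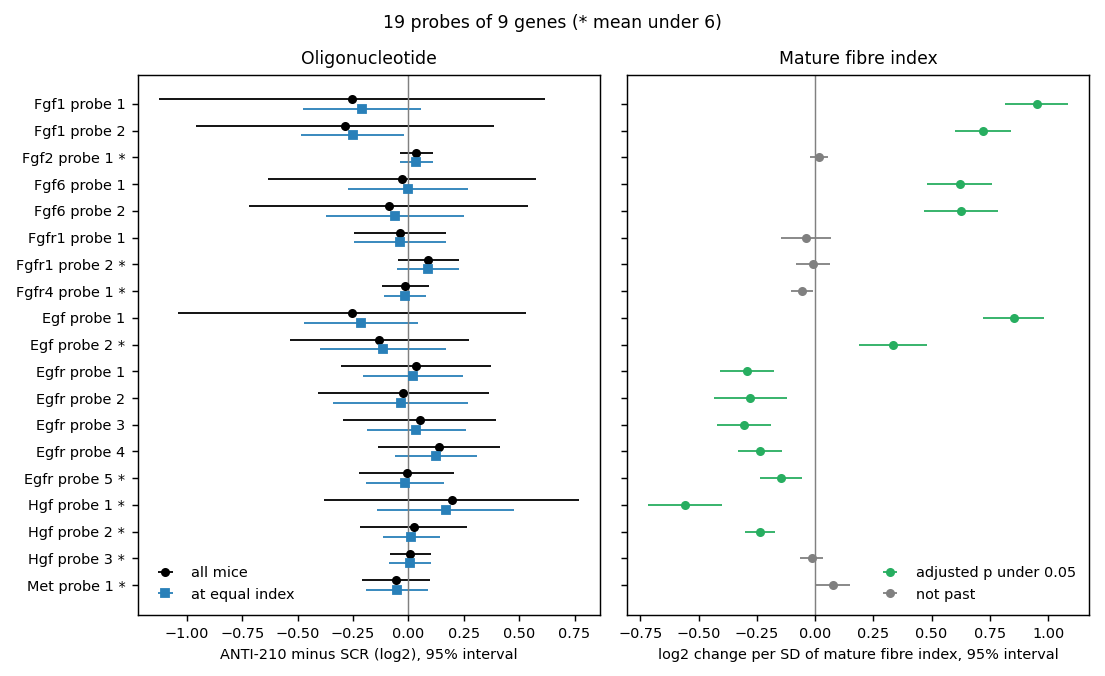
Differences between ANTI-210 and SCR (left, log2, black for all mice and blue at an equal mature fibre index) and slopes per SD of the index (right, log2) for the 19 probes, with 95% intervals. Probes are numbered within a gene from brightest to dimmest, and a star marks a mean under 6. The intervals of Fgf1 and Egf in the left panel narrow once the index is in the fit, and the 13 green slopes passed the threshold.

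The muscles with a low index also carried more transcripts of regenerating fibres and of macrophages. The list of regenerating fibre and satellite cell markers (12 of 15 measured) had a Pearson r of -0.82 with the index, and its level per mouse ran from -1.08 to 1.06 in SCR and from -0.84 to 1.02 in ANTI-210. The macrophage list (15 of 17 measured) had an r of -0.83, with levels from -1.24 to 1.26 and from -0.82 to 1.10. Among their defining markers Pax7, Myf5, Itgam and Ptprc were near the floor throughout, while Myog ran from 7.54 to 10.94 and Lyz2 from 10.29 to 13.89. With the macrophage or the regenerating fibre list in place of the index, 15 of the 19 probes had a slope past the threshold, those of Met and Fgfr4 among them, where 38.3% of all probes outside the fibre index had one on the macrophage list and 38.4% on the regenerating fibre list. Endothelial markers had an r of 0.48 with the index, and 5 of 12 were higher with ANTI-210 at an unadjusted p under 0.05 in limma and none after adjustment, where 3.47% of all genes passed the unadjusted threshold in either direction, while fibroblast markers had an r of -0.58. The part of these cells in the levels of the 9 genes was not tested.

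Correlations over the 22 mice gave Fgf1, Egf, Fgf6, Hgf and Egfr the same order of size as the slopes. Pearson r with the index was 0.95 for Fgf1, 0.94 for Egf and 0.90 for Fgf6 (permutation p = 1e-05 each, the smallest that 100000 resamples allow, and 2.25e-05 after adjustment over the 9 genes), and Spearman rho was 0.84, 0.76 and 0.71. For Hgf and Egfr r was -0.84 and -0.76, and rho was -0.79 and -0.70. Fgfr4 (r = -0.48, adjusted permutation p = 0.0379) and Met (r = 0.44, adjusted permutation p = 0.0485), both near the floor, also passed here, although neither had a slope past limma's threshold. The correlations were adjusted over the 9 genes and limma's slopes over all probes outside the index. Unadjusted p was 0.0253 by permutation and 0.0252 in limma for Fgfr4, and 0.0377 and 0.0368 for Met. Without the 2 mice farthest from the median index r was 0.91 for Fgf1, 0.90 for Egf, 0.79 for Fgf6, -0.85 for Hgf and -0.72 for Egfr, and -0.57 for Fgfr4 and 0.49 for Met. Without the 4 mice of lowest index it was 0.84 for Fgf1, 0.68 for Egf, 0.53 for Fgf6, -0.74 for Hgf and -0.55 for Egfr (adjusted permutation p from 5.40e-04 to 0.0466). Within the 11 SCR and the 11 ANTI-210 mice r was 0.96 and 0.94 for Fgf1 and 0.97 and 0.92 for Egf. By rank these were weaker in SCR mice, with a Spearman rho of 0.69 for Fgf1 and 0.53 for Egf (adjusted permutation p = 0.13 and 0.181). In ANTI-210 mice rho was 0.81 and 0.80 (adjusted permutation p = 0.00772 each). Within the 16 mice of replicate numbers 4 to 11 r was 0.96 for Fgf1, 0.97 for Egf, 0.95 for Fgf6, -0.91 for Hgf and -0.90 for Egfr. Within the 6 mice of numbers 1 to 3 it was 0.90, 0.91, 0.77, -0.98 and -0.74, with adjusted exact permutation p of 0.0292, 0.025, 0.14, 0.025 and 0.14.

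Of 36 pairs among the 9 genes, 17 were correlated at an adjusted permutation p under 0.05. The share of all gene pairs past this threshold was not counted, and 70.3% of probes not near the floor had a slope on the index. Neither the count nor the r values that follow, those of the residuals included, show whether these genes differ from others. Fgf1 and Egf had an r of 0.97, Egf and Fgf6 one of 0.93, Egfr and Hgf one of 0.90, and Egf and Egfr, a ligand and its own receptor, one of -0.87. After removal of group and index the r of the residuals was 0.65 for Fgf1 with Egf, 0.76 for Egfr with Hgf and -0.76 for Egf with Egfr. Hgf and its receptor Met had an r of -0.53 (adjusted permutation p = 0.0267), with Met near the floor. Fgf1 and Egf had an r of 0.98 in each set of replicate numbers. The pairs share the same 22 arrays and their normalization.

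Among 8828 other genes that were not near the floor, those most like Fgf1 over the 22 mice were Bckdk (r = 0.988), a kinase that controls the breakdown of branched-chain amino acids, Txlnb (0.987), Smco1 (0.987), Stradb (0.985) and the mitochondrial carrier Slc25a16 (0.984). Those most like Egf were Mettl22 (0.986), Asb11 (0.985), the amino acid sensing GTPase Rragd (0.984), the phosphatase Dusp26 (0.984) and the lipid transporter Abcb4 (0.983). Fgf6 was closest to Ccng1 (0.955), Ankrd40 (0.954) and Rragd (0.953). Egfr was closest to Tpbg (0.959), Pttg1ip (0.955) and the lysosomal enzyme Asah1 (0.955). For Fgfr1 the highest values were lower, at 0.764 for Ppp2r1a, 0.737 for Gna11 and 0.726 for Tmem87b.

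Replicate numbers 1 to 3 and 4 to 11 have been set apart from each other by the array values, with no batch named in the labels, so the comparison is also given within each. In numbers 1 to 3 the brighter Fgf1 probe averaged 9.43 in SCR and 8.01 in ANTI-210 (n = 3 each, difference -1.42, adjusted p = 0.0286 from limma over all probes). The 3 SCR muscles ran from 9.23 to 9.64 and the 3 ANTI-210 muscles from 7.48 to 8.54. In numbers 4 to 11 the same probe averaged 8.36 and 8.55 (n = 8 each, difference 0.18, unadjusted p = 0.731 from limma). Egf gave -1.20 (adjusted p = 0.0259) in numbers 1 to 3 and 0.10 (unadjusted p = 0.842) in numbers 4 to 11. The mature fibre index moved with these values, at 0.15 in SCR against -0.03 in ANTI-210 muscles in numbers 1 to 3, and -0.05 against 0.01 in numbers 4 to 11. In numbers 1 to 3, 11 of the 19 probes passed the unadjusted threshold, but so did 29.3% of all probes, and 14.2% of all probes after adjustment. In numbers 4 to 11 none of the 19 passed, with 2.54% of all probes unadjusted and 0% adjusted. Per SD of the index within the set, slopes in numbers 4 to 11 were 1.04 for Fgf1 and 0.98 for Egf, past the threshold. In numbers 1 to 3 they were 0.43 and 0.37 (adjusted p = 0.166 and 0.0934 from limma). The sizes cannot be set against each other, since each set has its own SD.

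The difference between the 2 sets was itself tested. For the brighter probes of Fgf1 and Egf the effect of ANTI-210 in numbers 1 to 3 minus that in numbers 4 to 11 was -1.61 (unadjusted p = 0.0937) and -1.30 (unadjusted p = 0.141). Of the 19 probes 3 passed an unadjusted 0.05, where 11% of all probes did, and none passed after adjustment. With the index in the fit the values of Fgf1 and Egf were -0.43 and -0.19 (unadjusted p = 0.154 and 0.407).

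The wider pathway was read from 93 genes in 7 lists, of which 82 were measured and 41 were near the floor. Between ANTI-210 and SCR, 1 of the 82 passed an unadjusted 0.05, where 3.47% of all genes did, and none passed after adjustment. That gene was Nrg3, a neuregulin ligand of ERBB4, at -0.09 (unadjusted p = 0.0180) and a mean of 4.62 near the floor. The median difference of the 82 was 0.01. On the index 10 had a positive slope, 24 a negative one and 48 none, where 19.1% and 23.3% of all genes had a positive and a negative one.

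Among 19 further FGF ligands 15 were near the floor. Fgf13, which acts within the cell rather than through receptors, had a slope of 0.17 and Fgf22 one of 0.28. Fgf7, a ligand of mesenchymal cells, had -0.14, Fgf21 -0.30 and Fgf11 -0.05, the latter pair near the floor. Of the 14 receptors, co-receptors and binding proteins measured, 3 were near the floor. A negative slope was found in 7 of the 14, in 23.3% of all genes and in 34.3% of probes not near the floor. Among the 7 were the syndecans Sdc1 (-0.66) and Sdc3 (-0.53) and the FGF receptor partner Flrt2 (-0.40). Fgfbp1, a carrier that releases FGFs from the matrix, went the other way with a slope of 0.96 (adjusted p = 4.38e-07), close to that of Fgf1.

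Of 8 further EGF family ligands 7 were near the floor, and one of these, betacellulin, Btc, had a slope of 0.17. Erbb2, the co-receptor of the family, had -0.36, alongside Egfr, while Lrig1, which drives the removal of ERBB receptors, had 0.44 (adjusted p = 2.93e-08). Among genes of HGF activation and of the related ligand MST1, the receptor Mst1r (-0.31), the protease Plau (-0.21) and the inhibitor Spint1 (-0.19) were lower with a higher index and the protease Hpn (0.23) was higher, with Mst1r and Hpn near the floor.

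Downstream of the receptors, 4 of 11 measured relay genes had a slope past the threshold, 2 positive and 2 negative. Of all genes 19.1% had a positive slope and 23.3% a negative one. The adaptor Shc1 had -0.38 and Nras -0.26, while the adaptor Frs3 had 0.29 and the kinase Map2k2 0.12. Of 16 ERK targets and feedback inhibitors 8 were lower where the index was higher and 1 was higher. The phosphatases Dusp4 (-0.35) and Dusp5 (-0.36), the inhibitor Spred1 (-0.35) and the cyclin Ccnd1 (-0.30) had the smallest p among them. The list had a median slope of -0.10, where the median over all genes was 0.0034.

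**Figure D4:**
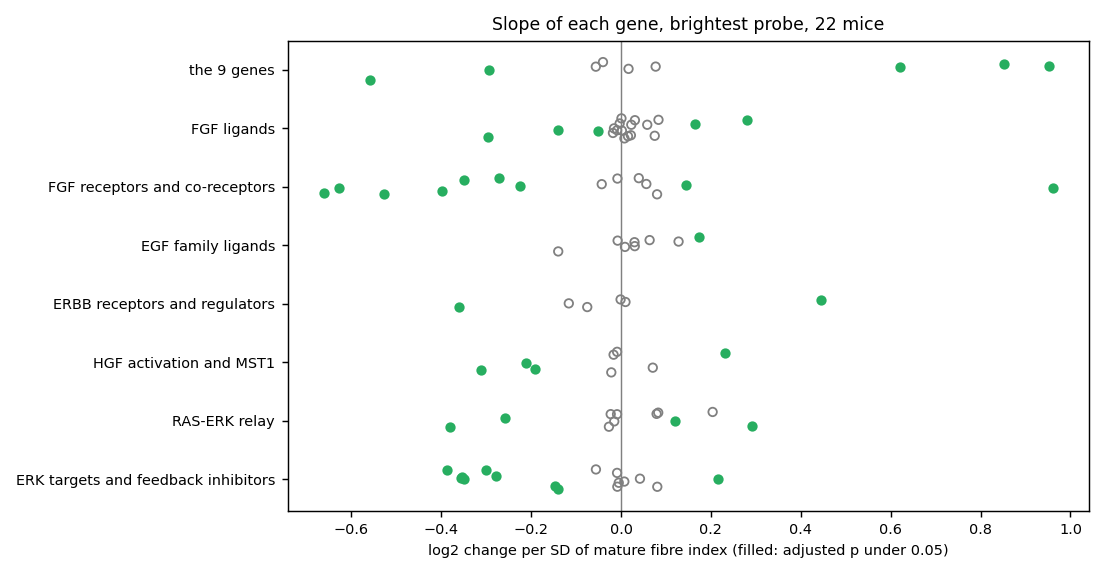
Slope on the mature fibre index per SD (horizontal axis, log2, brightest probe, 22 mice) of the 9 genes and of the 7 pathway lists (rows), with 1 circle per gene, filled where the adjusted p was under 0.05. Fgfbp1 at 0.96 stands beside Fgf1 at 0.95, and 8 of the 9 filled ERK targets lie below 0. Of all genes 23.3% had a negative slope past the threshold and 19.1% a positive one.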

How the data were processed

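The titles and labels of the samples give the groups and the replicate numbers, and each of the 22 arrays holds the RNA of 1 mouse. The deposited values are log2 intensities. For their analysis the authors took bead summaries from GenomeStudio, applied quantile normalization and used beadarray to filter probes on expression and quality. The deposited table still holds 38563 probes, 62.6% of them with a mean under 6. Not given in the sources used here are versions, the thresholds of that filter and the base of the logarithm, and log2 was taken from the range of 4.35 to 15.4. Quantile normalization gives every array the same distribution, so a shift of all transcripts would not be seen. The table holds 0 further columns of values. Gene names come from the platform annotation, with 1 symbol on 32093 probes, several on 16 and none on 6454. Where 1 value per gene was used it came from the brightest probe, by its mean in the 22 mice, and a mean under 6 was called near the floor. Probes are read without their sequences, so where in a transcript each lies is not used here.

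Differences are ANTI-210 minus SCR from limma 3.58.1 (lmFit and eBayes) in R 4.3.3, fitted over all 38563 probes, with two-sided tests. The study's methods set the threshold at an unadjusted p under 0.05, and Benjamini-Hochberg adjusted values are given beside it. The mature fibre index used 26 of 28 listed genes. Slopes on it come from a limma fit with group and index, adjusted over the probes of genes outside the index. In a fit to part of the mice the index was centred and scaled to its SD anew over those mice. The difference at an equal index is the group term of that fit, and a further term tested whether slopes differed between the groups. Correlations used Pearson r and Spearman rho with permutation tests of 100000 resamples (scipy 1.17.1, Python 3.11.15). Intervals are 95% intervals. The scripts recovered the differences and slopes put into simulated data.

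The 9 genes, the pathway and marker lists, the tests and the rule for named genes were chosen with earlier results of these data known, and so were the sets of replicate numbers 1 to 3 and 4 to 11. The rule names every probe of the 9 genes, every gene of a pathway list past a threshold where a list had 5 or fewer and otherwise the 4 with the smallest p, and the 5 genes most correlated with Fgf1 and Egf and the 3 most correlated with each other gene that was not near the floor. Same-numbered mice did not vary together: 4 of 11 pairs had a correlation of deviations above 0.1, so the numbers were not used to pair mice. Alternatives were median centring or cyclic loess of the arrays, array weights, a trended robust eBayes, a filter on dim probes, the replicate number as a block, each mouse left out, each set of replicate numbers alone or as a covariate, other damage indices, averaging all probes of a gene and the methods' t-test. Leaving out the 4 mice of lowest index and the interaction with the set were added after the data were seen. The marker lists of epidermis, adipocytes, red blood cells and Schwann cells had a Pearson r with the index of -0.05, -0.01, -0.28 and 0.37.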

Additional observations from a re-analysis of the deposited data

Results flagged for a closer look

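In 3 of the 19 probes the effect of ANTI-210 differed between replicate numbers 1 to 3 and 4 to 11 at an unadjusted p under 0.05 of the interaction in limma, and each of the 3 had an adjusted p of 0.448. For the dimmer Egf probe the effect in numbers 1 to 3 minus that in numbers 4 to 11 was -0.92 (unadjusted p = 0.0360). It was 1.22 for the brightest Hgf probe (unadjusted p = 0.0495) and 0.33 for the dimmer Fgfr1 probe (unadjusted p = 0.0287). All 3 probes had a mean under 6, and 11% of all probes passed the same threshold. With the mature fibre index in the fit the Egf and Hgf values were -0.54 and 0.50 (unadjusted p = 0.101 and 0.0641), while the Fgfr1 value was 0.34 (unadjusted p = 0.0304).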

How the results depend on the processing

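No alternative tried reversed a slope that was past the threshold in all mice for the brightest probe of a gene. Differences between the groups did change sign. In numbers 4 to 11 alone the difference was 0.18 for Fgf1 and 0.10 for Egf, against negative values past the threshold in numbers 1 to 3. The Egf difference at an equal index was 0.07 with the macrophage index, against -0.21 with the replicate number as a block. The cause of each change in this section was not tested. In numbers 1 to 3 alone (3 mice against 3) the difference was -1.42 for Fgf1 and -1.20 for Egf, both past the threshold. There 11 of the 19 probes and 25 of the 82 pathway genes passed unadjusted, where 29.3% of all probes did. The slopes of Fgf1 and Egf, 0.43 and 0.37 per SD of the index in those 6 mice, did not pass. That left 1 probe and 1 pathway gene with a slope. Without the 4 mice of lowest index Egf differed by -0.39 (unadjusted p = 0.0466, adjusted p = 0.890), as the 1 probe that passed, with 5 pathway genes (Sdc1, Btc, Nrg3, Dusp4 and Dusp6), and 6 of the 19 probes and 10 pathway genes had a slope past the threshold. Array weights called 1 probe, an Egfr probe at 0.24 (unadjusted p = 0.0481), and 11 pathway genes. Apart from the differences within the sets of replicate numbers, the share of all probes past the threshold was not counted for the alternatives in this section. Counts there have no background to be read against. Besides Nrg3, median centring and the trended robust eBayes called Sos1, and the set as a covariate called Fgfr3, 2 pathway genes in each case. Averaging all probes of a gene gave 2 pathway genes, and the brighter probes alone 0. With each mouse left out in turn, 1 to 4 pathway genes passed, with the 4 reached without ANTI-210 mouse 4, and none of the 19 probes. The difference at an equal index ran from -0.28 to -0.17 for Fgf1 and from -0.26 to -0.14 for Egf. With the replicate number as a block 2 pathway genes passed (Nrg3 and Fgfr3) and the Egf difference at an equal index was -0.21 with an unadjusted p of 3.99e-04, while Fgf1 stayed at -0.21 (unadjusted p = 0.0639), and 15 of the 19 probes had a slope, those of Fgfr4 and Met among them. The numbers are not shown to pair mice, since correlations of same-numbered pairs ran from -0.664 to 0.641 and 2 of 22 mice correlated best with their own number. The methods' t-test called 1 pathway gene unadjusted and 0 after Benjamini-Hochberg. Dim probes limit Fgf2, Fgfr4, Met and Hgf, and 22 arrays limit the precision.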
